A study of Mus musculus with 6 samples.

Results

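The genes described here are 10 members of the fibroblast growth factor (FGF) pathway in mouse embryonic stem cells: the ligand genes Fgf4, Fgf8, Fgf15 and Fgf17, the receptor genes Fgfr1 and Fgfr2, and the feedback inhibitors and targets Spry2, Spry4, Dusp6 and Etv4. They were taken by name, as every probe set that the platform annotation assigns to a member alone, which gave 23 probe sets. All 10 passed the filter on dim genes, as did 13277 of 18193 genes on the array, and a gene's level is that of its brightest probe set. The study hybridised RNA of 6 samples, 1 for each of 2 lines at days 0, 4 and 7. Both lines are triple knockout stem cells without their own Dnmt1, Dnmt3a and Dnmt3b, and each carries a DNMT1 that is expressed throughout, complete in the line TKO_FL and lacking the first 602 amino acids in the line TKO_602. The promoter that drives DNMT1 and the number of clones behind a line were not given in the sources used here, so DNMT1 form and line cannot be told apart. At day 0 cells were kept as stem cells with 10% serum and LIF, the leukaemia inhibitory factor. Day 4 samples followed 1 day of embryoid body culture and 3 days of adherent culture, both without LIF. For day 7, Activin A at 10 ng/ml and 10% KSR were given for another 3 days.

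FGFs are secreted proteins that bind receptor tyrosine kinases together with heparan sulfate and signal largely through RAS and the kinases MEK and ERK. ERK activity switches on ETS factor genes such as Etv4 as well as inhibitors that dampen the same route, among them the Sprouty proteins and DUSP6, a phosphatase of ERK. In mouse embryonic stem cells FGF4 acts as an autocrine signal that readies cells to leave naive pluripotency, and FGF8 is a ligand of the primitive streak.

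Levels are given as log2 MAS5 signals, which were set to a floor of 5.37 where they lay below it. With 1 array per line and day there was no replicate of a condition, and neighbouring levels in any order given here have no spread of their own. The test was a limma fit with line and day as additive factors, whose residual spread is the disagreement of the lines over their time courses, and a gene was called at a Benjamini-Hochberg adjusted p under 0.05 over all 13277 genes. Nothing in the labels names separate cultures as replicates, so the p-values measure only the spread between these samples. Log2 levels of different genes are not compared, since probes differ in brightness.

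Stem cell markers were present throughout, with 10 of 10 more than 2 times above the floor on each of the 6 arrays. Of 9 primitive streak markers 4 were measured, and Mixl1, Gsc, Wnt3 and Lhx1 lay below the floor, while T had no probe set of its own in the annotation. The log2 of the summed fibroblast marker signals was 12.61, 10.20 and 10.87 at days 0, 4 and 7 in TKO_FL and 13.83, 10.06 and 11.14 in TKO_602. The same sum for 10 extraembryonic endoderm markers was 10.06, 11.58 and 10.93 in TKO_FL and 10.01, 12.58 and 12.41 in TKO_602. The sum for 4 macrophage markers ran from 9.03 in TKO_FL at day 4 to 11.97 in TKO_602 at day 0. In bulk samples fewer cells of a type and less RNA per cell cannot be told apart, and the part of these marker lists in the results was not tested.

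Across both lines, Spry4 fell between day 0 and day 7, and it was the 1 member of 10 that passed the test in any comparison. It was called lower in a comparison where 1.03% of all genes were called and 0.392% were called lower. Fgf17 and Etv4 had changes of like size that missed the threshold. For day 4 over day 0, day 7 over day 4 and the line difference limma called 0 of 10 members, beside 1.58%, 0.0151% and 0% of all genes. An unadjusted p under 0.05 was reached by 6, 3 and 4 members in these comparisons, beside 16.2%, 11.9% and 12.2% of all genes, and by 4 members for day 7 over day 0, beside 17.3%. The members were chosen with earlier results of these data known, so counts above these shares are not read as a result. The median change of the 10 members for day 7 over day 0 was -0.59, against 0.06 for all genes. It was 0.43 for day 4 over day 0, -0.73 for day 7 over day 4 and -0.31 for the line difference. The medians of all genes there were 0.045, -0.005 and -0.057.

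**Figure D1:**
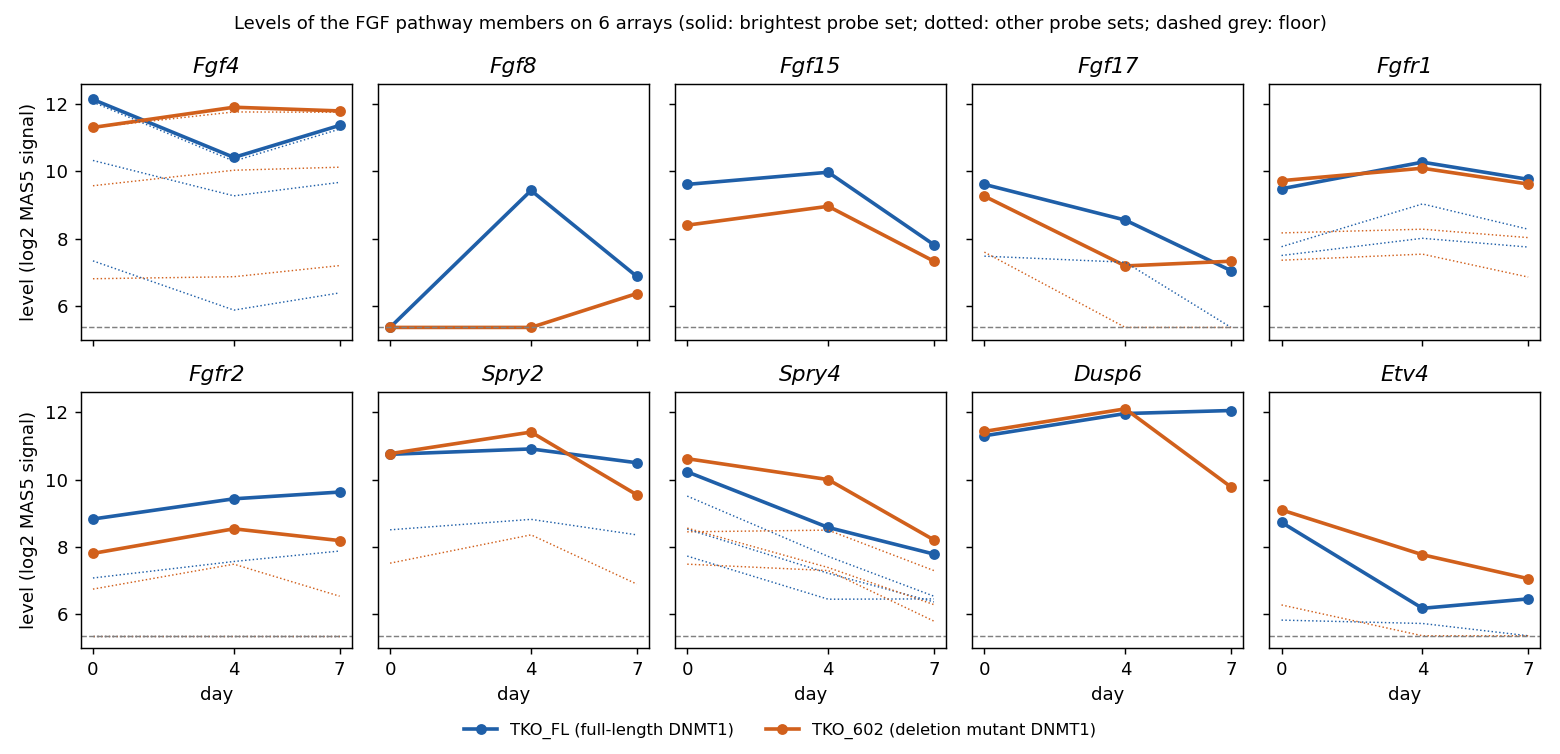
Log2 MAS5 level (vertical axis) of each of the 10 members against day (horizontal axis) in TKO_FL (blue) and TKO_602 (orange), with 1 array per point. Solid lines with points are the brightest probe set, dotted lines the other probe sets and the dashed line the floor of 5.37. Fgf8 stands at 9.43 in TKO_FL at day 4 and at the floor in TKO_602, and Dusp6 stands at 9.78 in TKO_602 at day 7.

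Within single lines, where 1 array was set against another without a test, a member counted as past the fold when its levels differed at least 2-fold and the higher of them was 2 times the floor or more. From day 0 to day 4, TKO_FL had 1 member higher (Fgf8) and 4 lower (Fgf4, Fgf17, Spry4 and Etv4), beside 8.14% and 5.02% of all genes. TKO_602 had 0 higher and 2 lower over the same days, beside 6.24% and 4.07%. From day 4 to day 7, TKO_FL had 0 higher and 3 lower (Fgf8, Fgf15 and Fgf17), beside 5.2% and 3.14%. TKO_602 had 1 higher (Fgf8) and 4 lower (Fgf15, Spry2, Spry4 and Dusp6), beside 4.76% and 5.97%. Over the whole course from day 0 to day 7, 4 members were lower in TKO_FL and 6 in TKO_602, beside 4.26% and 4.72% of all genes. Fgf8 alone was higher in each, beside 9.95% and 6.25%. In TKO_602 both Fgf8 counts rest on a day 7 level of 6.37 and a log2 change of 1.005 from the floor. These values only just passed the cuts and depend on where the floor was set. The 4 genes lower in both were Fgf15, Fgf17, Spry4 and Etv4, and Spry2 and Dusp6 made up the other two in TKO_602. At day 0, before LIF was withdrawn, 0 members were at least 2-fold higher in TKO_602 than in TKO_FL and 2 were lower, Fgf15 and Fgfr2, beside 3.14% and 2.82%. These comparisons share arrays, so their counts are not independent of one another.

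Among the ligands, Fgf4 had levels of 12.13, 10.41 and 11.36 at days 0, 4 and 7 in TKO_FL and of 11.30, 11.90 and 11.79 in TKO_602. The day 4 array of TKO_FL was the lowest of the 6, and the ranges of the lines overlapped. The change from day 0 to day 4 was -1.72 in TKO_FL and 0.60 in TKO_602, and at day 4 TKO_602 lay 2.81-fold above TKO_FL. The other 3 Fgf4 probe sets gave -1.75, -1.46 and -1.05 in TKO_FL and 0.46, 0.06 and 0.46 in TKO_602. They are not independent readings, since 2 of them were designed from the same sequence as the brightest, and the name of 1 of these marks probes that may bind other transcripts too. Averaged over the lines, the day 4 change was -0.56 (SE 0.45, limma adjusted p = 0.605). It was 0.29 without the TKO_FL day 4 array and 0.34 without the TKO_FL day 0 array. The summed stem cell markers were also lowest in TKO_FL at day 4, at 16.37 against 16.52 to 17.27 on the other arrays, and the part of this in the Fgf4 levels was not tested.

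Fgf8 was the member with arrays below the floor in its brightest probe set. Its deposited levels were 2.55, 9.43 and 6.88 at days 0, 4 and 7 in TKO_FL and 3.45, 4.55 and 6.37 in TKO_602, so that 3 of 6 arrays lay below the floor. It stood above the floor at day 4 in TKO_FL alone, and at day 7 in both. Counted from the floor, TKO_FL at day 4 was at least 16.7-fold above its day 0 level and above TKO_602 of the same day. The Fgf8 change for day 4 over day 0, averaged over lines, was 2.03 and was not called (SE 0.87, limma adjusted p = 0.305), and it was 0.13 without the TKO_FL day 4 array. Only 1 probe set reads Fgf8. Beside it, Eomes, a T-box factor of the streak, was at 6.96, 8.95 and 7.23 in TKO_FL and at 6.15, 8.03 and 7.92 in TKO_602. The sum of the 4 measured streak markers was 9.45 in TKO_FL at day 4 and 9.38 in TKO_602 at day 7, where Fgf8 stood at 6.37.

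Fgf17 belongs to the same subfamily of ligands as Fgf8. Its levels were 9.61, 8.55 and 7.05 in TKO_FL and 9.26, 7.19 and 7.33 in TKO_602. Both day 0 arrays were above all later arrays, and TKO_602 had reached its lower level by day 4. The change from day 0 to day 7 was -2.56 and -1.93 in the lines, with a mean of -2.25 (SE 0.41, 95% interval -3.20 to -1.29, limma adjusted p = 0.0566). With arrays scaled to equal medians the mean was also -2.25 and the gene was called (limma adjusted p = 0.0234), against adjusted p from 0.0526 to 0.373 in the other 6 settings. A dimmer probe set gave -2.12 and -2.24 for the same change, both counted to the floor.

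Fgf15 encodes the mouse counterpart of human FGF19, an endocrine ligand in the adult gut that is also made in the early embryo. Its levels were 9.61, 9.97 and 7.82 in TKO_FL and 8.40, 8.96 and 7.33 in TKO_602. The day 7 arrays were the lowest in each line, and TKO_602 lay below TKO_FL at every day, with differences of -1.21, -1.01 and -0.49. Day 7 over day 4 gave -2.15 and -1.63, with a mean of -1.89 (SE 0.29, limma adjusted p = 0.0897). With equal medians this change was -1.86 and was called (limma adjusted p = 0.0493), against adjusted p from 0.0787 to 0.495 in the other 6 settings. The mean line difference of -0.90 was not called (SE 0.23, limma adjusted p = 0.294).

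Fgfr1, the main FGF receptor gene of embryonic stem cells, varied least. Its levels were 9.48, 10.27 and 9.76 in TKO_FL and 9.72, 10.09 and 9.62 in TKO_602, and the lines overlapped. Day 4 was the highest day in both lines, with a mean change over day 0 of 0.58 (SE 0.22, limma adjusted p = 0.239). By the brightest probe set the line difference was -0.03, with a 95% interval of -0.44 to 0.38. Its other 2 probe sets also placed day 4 highest in both lines. Their mean line differences were -0.20 and -0.50. The dimmest was lower in TKO_602 at every day, by -0.14, -0.47 and -0.89 at days 0, 4 and 7.

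Fgfr2, a receptor gene with roles in extraembryonic lineages, had levels of 8.83, 9.43 and 9.63 in TKO_FL and of 7.81, 8.54 and 8.19 in TKO_602. Every array of TKO_602 lay below every array of TKO_FL. It was the 1 member of 10 whose lines did not overlap, and 6.6% of all genes lay lower in TKO_602 in this way and 5.26% higher. The mean line difference was -1.12 (SE 0.22, 95% interval -1.63 to -0.60), and it was not called (limma adjusted p = 0.281), in a comparison with 0 called genes and 1624 genes at an unadjusted p under 0.05. When each array was left out in turn the difference stayed between -1.23 and -0.96. The second Fgfr2 probe set differed less, by -0.33, -0.08 and -1.34 at days 0, 4 and 7, and there the lines overlapped. The remaining probe set was below the floor on 6 of 6 arrays. With the Fgfr2 probe sets averaged, the mean line difference was -0.57 (limma adjusted p = 0.458). The summed extraembryonic endoderm markers, given above, were higher in TKO_602 than in TKO_FL at days 4 and 7.

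**Figure D2:**
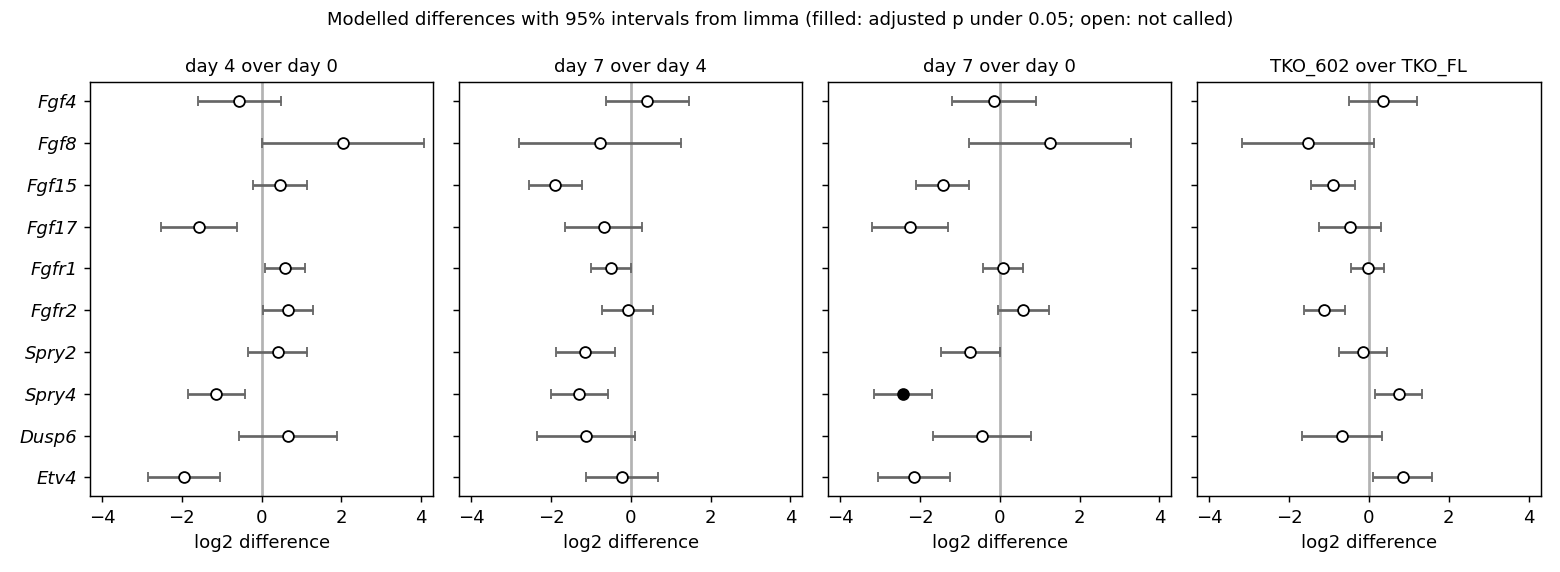
Modelled log2 difference (horizontal axis) of each member (vertical axis) in 4 comparisons, with 95% intervals from the limma fit over 6 arrays that are not adjusted for the number of genes. The filled point is Spry4 for day 7 over day 0, at -2.43, and open points were not called.

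Among the feedback genes, Spry4 encodes a Sprouty protein that restrains receptor tyrosine kinase signalling. Its levels were 10.23, 8.58 and 7.79 at days 0, 4 and 7 in TKO_FL and 10.62, 10.00 and 8.21 in TKO_602. By this brightest probe set levels were lower at each later day in both lines, both day 7 arrays lay below all others, and the lines overlapped. A dimmer probe set had TKO_602 at 8.45 at day 0 and 8.50 at day 4. Another had TKO_FL at 6.45 at day 4 and 6.46 at day 7. Spry4 fell 5.37-fold from day 0 to day 7 (log2 -2.43, SE 0.31, limma adjusted p = 0.0255), with log2 changes of -2.44 in TKO_FL and -2.41 in TKO_602. The other 3 probe sets were lower at day 7 as well, by log2 values of -2.97, -2.16 and -1.27 in TKO_FL and -1.15, -2.27 and -1.69 in TKO_602. Each of the 6 fits that left out an array lost the call, with estimates from -2.69 to -2.16 and adjusted p from 0.0781 to 0.357. It was also lost with the probe sets averaged (log2 -2.04, adjusted p = 0.109), without a variance trend (adjusted p = 0.0931), without a line term (adjusted p = 0.0998) and without the filter on dim genes (adjusted p = 0.333).

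Etv4 encodes an ETS transcription factor induced by FGF signalling. Its levels were 8.73, 6.18 and 6.46 in TKO_FL and 9.10, 7.77 and 7.06 in TKO_602. As for Spry4, both day 0 arrays were the highest by the brightest probe set, and at day 4 TKO_602 lay above TKO_FL, by 1.59 for Etv4 and by 1.42 for Spry4. For this day 4 difference the other Spry4 probe sets gave 0.78, 0.17 and 0.85, and the second Etv4 probe set gave -0.365. By the brightest probe sets 3 members, Fgf4, Spry4 and Etv4, were at least 2-fold higher in TKO_602 at day 4, beside 2.43% of all genes. Fgf8, Fgf15 and Fgf17 were at least 2-fold lower, beside 3.52%. The mean change of Etv4 was -1.94 for day 4 over day 0 (SE 0.39, limma adjusted p = 0.0593) and -2.16 for day 7 over day 0 (SE 0.39, limma adjusted p = 0.0556). Both were called with arrays scaled to equal medians (limma adjusted p = 0.0374 and 0.0331) and in none of the other 6 settings (adjusted p from 0.0596 to 0.439 and from 0.0541 to 0.351). With averaged probe sets the changes were -1.22 and -1.42 (adjusted p = 0.117 and 0.109). The second Etv4 probe set lay close to the floor and gave a mean of -0.69 for day 7 over day 0. Etv5, its closest relative in the pathway list, had levels of 13.27, 12.72 and 12.37 in TKO_FL and 13.41, 13.08 and 12.90 in TKO_602.

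Dusp6 and Spry2 departed from that course. Dusp6 had levels of 11.30, 11.96 and 12.05 in TKO_FL and of 11.43, 12.10 and 9.78 in TKO_602. Spry2 had levels of 10.75, 10.91 and 10.50 in TKO_FL and of 10.77, 11.41 and 9.55 in TKO_602. For both genes the lines were at most 0.50 apart at days 0 and 4 by the brightest probe set, their ranges over the days overlapped, and TKO_602's day 7 array was the lowest of the 6. From day 4 to day 7 TKO_602's level changed by -2.32 for Dusp6 and by -1.86 for Spry2, against 0.09 and -0.41 in TKO_FL. Spry4, Etv4, Fgf4 and Fgfr2 also had more negative changes in TKO_602 over these days. Fgf8, Fgf15, Fgf17 and Fgfr1 did not. At day 7 TKO_602 stood 4.82-fold below TKO_FL for Dusp6 and 1.93-fold below for Spry2. At that day Dusp6 and Fgfr2 were the 2 members at least 2-fold lower in TKO_602, beside 8.92% of all genes lower and 3.95% higher. The second Spry2 probe set gave -1.46 in TKO_602 and -0.46 in TKO_FL for day 7 over day 4, with TKO_602 minus TKO_FL at -0.99, -0.46 and -1.46 at days 0, 4 and 7, and Dusp6 has 1 probe set.

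These differences between lines rest on 1 array and were not tested. Averaged over the lines, day 7 over day 4 was -1.12 for Dusp6 (SE 0.53, limma adjusted p = 0.468) and -1.14 for Spry2 (SE 0.32, limma adjusted p = 0.255). Without TKO_602's day 7 array, Dusp6 turned to 0.09 for day 7 over day 4 and to 0.75 for day 7 over day 0. The summed primed epiblast markers were at 11.77, 14.36 and 12.28 in TKO_FL and at 11.55, 13.58 and 11.91 in TKO_602. This list holds Fgf5, described below as a pathway gene, and Dnmt3b, which is knocked out in both lines. The part of these markers in the Dusp6 and Spry2 levels was not tested.

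**Figure D3:**
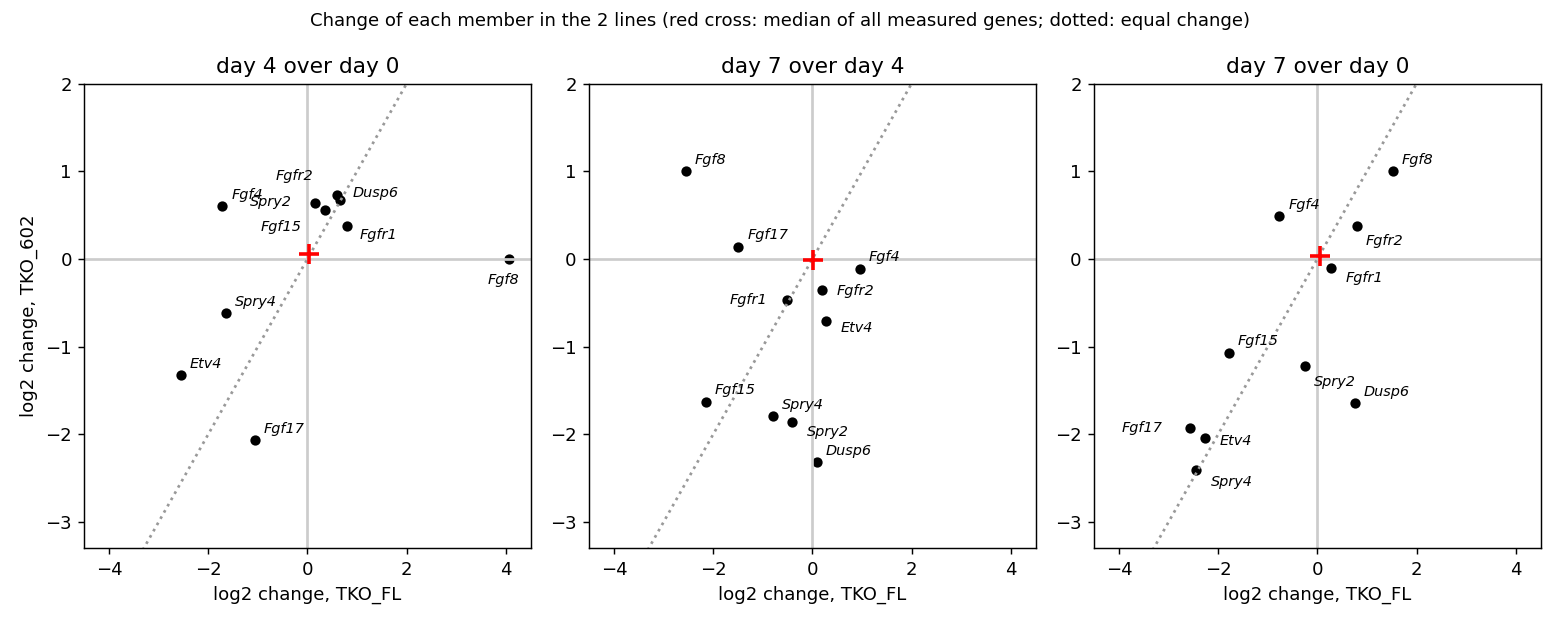
Log2 change of each member in TKO_602 (vertical axis) against that in TKO_FL (horizontal axis) for 3 pairs of days, with 1 array at each end of a change. The red cross is the median of all measured genes, and the dotted line marks equal change. Fgf8 and Fgf4 lie far from the dotted line for day 4 over day 0. For day 7 over day 4, Dusp6, Spry2, Spry4, Etv4, Fgf4 and Fgfr2 lie below it. Spry4, Fgf17 and Etv4 lie near it for day 7 over day 0.

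DNMT1 methylates cytosine in CpG dinucleotides, and the windows before the start sites of Dusp6 and Spry2, whose courses ran alike, and of Fgfr2, whose lines did not overlap, are shown with each CpG in capitals. They are the 250 bases upstream of the start in RefSeq's GRCm38.p6 table, written 5′ to 3′ on the gene's strand. No methylation was measured in the files used here.
Dusp6, chr10:99262981-99263230, plus strand: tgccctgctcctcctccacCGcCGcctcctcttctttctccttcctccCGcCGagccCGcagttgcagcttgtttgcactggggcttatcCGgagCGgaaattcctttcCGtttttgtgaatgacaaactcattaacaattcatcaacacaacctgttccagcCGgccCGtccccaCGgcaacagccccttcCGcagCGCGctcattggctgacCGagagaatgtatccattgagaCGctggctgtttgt
Spry2, chr14:105896820-105897069, minus strand: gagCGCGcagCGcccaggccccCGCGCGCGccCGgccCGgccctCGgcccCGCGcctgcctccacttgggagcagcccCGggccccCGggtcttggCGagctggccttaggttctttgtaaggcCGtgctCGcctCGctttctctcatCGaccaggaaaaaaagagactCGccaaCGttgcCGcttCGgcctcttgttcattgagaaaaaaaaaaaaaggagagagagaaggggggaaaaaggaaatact
Fgfr2, chr7:130266809-130267058, minus strand: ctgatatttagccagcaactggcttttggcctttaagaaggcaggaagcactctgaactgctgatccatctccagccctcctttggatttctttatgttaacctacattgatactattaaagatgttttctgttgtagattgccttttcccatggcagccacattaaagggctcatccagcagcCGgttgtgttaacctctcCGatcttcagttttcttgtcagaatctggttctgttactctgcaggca

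Windows of the table on chromosome 18, where Spry4 lies, were left out before matching. The rest of the table, 32851 windows, matched 4 of the 10 members, and shares given here are of these windows. The 250 bases hold 16 CpG for Dusp6, 23 for Spry2, 21 for Fgf4 and 2 for Fgfr2, and the median over 32851 windows of the table is 6. The Fgfr2 window has more CpG than 18.8% of windows and that of Spry2 more than 86.7%. In the full windows of 300 bases, which add 50 bases after the start, 3 motifs were searched on both strands: the ETS core CCGGAAGT, the AP-1 site TGANTCA and the STAT site TTCNNNGAA, where N is any base and none of the motifs lies within another. None of the 4 windows holds any of the 3 motifs, and 3.89%, 7.81% and 8.30% of all windows do.

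The rest of the pathway was read from a list of 83 further genes, of which 63 were measured. In the list 1 gene rose and 2 fell from day 0 to day 4, beside 0.881% and 0.7% of all genes called higher and lower, and 2 rose and 1 fell from day 0 to day 7, beside 0.64% and 0.392%. None of the 63 was called by limma for day 7 over day 4 or between the lines, where 0.0151% and 0% of all genes were, while 11 and 9 of the 63 had an unadjusted p under 0.05, beside 11.9% and 12.2% of all genes. For day 4 and day 7 over day 0 that held for 17 and 16 of the 63, beside 16.2% and 17.3%. The median change of the list was 0.19 for day 4 over day 0 and -0.03 for day 7 over day 0, against 0.05 and 0.06 for all genes.

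Among other ligands, 9 of 18 were measured and Fgf5, a ligand of the primed epiblast, was the called gene. Its levels were 5.52, 11.70 and 9.21 in TKO_FL, and in TKO_602 it was at the floor at day 0 and at 10.26 and 7.80 at days 4 and 7. The modelled Fgf5 rise to day 4 was log2 5.54 (SE 0.38, limma adjusted p = 0.0018), with 3.75 for its other probe set. Estimates without 1 array ran from 4.90 to 6.17, and the call was lost in the 4 fits without an array of day 0 or day 4. Fgf5 rose by log2 3.06 from day 0 to day 7 (SE 0.38, limma adjusted p = 0.0250), with its other probe set at 1.64. That call was lost in each of 6 fits that left out 1 array, with estimates from 2.43 to 3.70. Fgf13, an intracellular relative of the FGFs, had levels of 8.92, 10.13 and 9.03 in TKO_FL and 8.98, 9.96 and 8.99 in TKO_602 (limma adjusted p = 0.0628 for day 4 over day 0).

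Of other receptors and cofactors 17 of 19 were measured, and Fgfbp1, which encodes a secreted carrier of FGFs, was the called gene. Its levels were 10.08, 9.95 and 11.53 in TKO_FL and 9.33, 10.09 and 11.17 in TKO_602, so that both day 7 arrays stood above the rest. Fgfbp1 rose 3.13-fold from day 0 to day 7 (log2 1.65, SE 0.24, limma adjusted p = 0.0363), a call lost in each of the 6 fits without 1 array, with estimates from 1.33 to 1.97. Flrt3, which encodes a membrane protein that binds FGF receptors, had a day 4 change of 1.81 (limma adjusted p = 0.0835). Klb, which encodes a co-receptor of some endocrine FGFs, was at 5.82, 5.79 and 6.44 in TKO_FL. In TKO_602 Klb was at the floor at day 0 and at 7.42 and 7.90 at days 4 and 7. Gpc4, a heparan sulfate proteoglycan, had the largest line difference of the 17 apart from Klb, at -0.85 (limma adjusted p = 0.288).

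None of the 14 measured signal transducers of 21 listed was called by limma in any of the 4 comparisons, and 1 of them had an unadjusted p under 0.05, in the difference between the lines. For day 4 over day 0 the largest effects were those of the kinase scaffold gene Ksr1, the exchange factor gene Sos2 and the phosphatase gene Ptpn11, at -0.43, 0.49 and 0.42 (limma adjusted p = 0.636, 0.475 and 0.326).

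Of other feedback inhibitors and targets 23 of 25 were measured, and the called genes were Egr1 and Egr2, immediate-early zinc finger factors that ERK induces. Egr1 had levels of 13.09, 10.03 and 10.72 in TKO_FL and 13.00, 9.58 and 10.05 in TKO_602, with both day 0 arrays far above the others. Egr1 fell 9.45-fold to day 4 (log2 -3.24, SE 0.20, limma adjusted p = 0.0013) and 6.32-fold to day 7 (log2 -2.66, limma adjusted p = 0.0043). Each of these calls held in 2 of 6 fits without 1 array, those that left out an array of the day not compared, and was lost without any of the other 4. Egr2 fell by 2.93 on the log2 scale to day 4 (SE 0.53, limma adjusted p = 0.0441), with a mean of -2.32 for a second probe set. Its day 0 levels were 7.41 in TKO_FL and 9.18 in TKO_602, and both day 4 levels lay at the floor. This was a call lost in each of the 6 fits, with estimates from -3.89 to -1.97. Spry1, the third measured Sprouty gene, was at 9.02, 10.13 and 9.80 in TKO_FL and 9.34, 10.54 and 9.01 in TKO_602. Dusp4, a nuclear phosphatase of MAP kinases, was at 9.15, 9.48 and 8.85 in TKO_FL and at 7.94, 9.58 and 7.26 in TKO_602. In Spry1 and Dusp4, as in Spry2 and Dusp6, day 7 over day 4 was more negative in TKO_602, a difference that was not tested. Ccnd1 and Etv5, among others of the 23, went the other way, at -1.63 and -0.35 in TKO_FL and -0.22 and -0.18 in TKO_602. The median change of the 23 genes over these days was -0.15 in TKO_FL and -0.46 in TKO_602, against 0.02 and -0.01 for all genes. Fibroblast markers were also highest at day 0, and their part in the Egr1 and Egr2 levels was not tested.

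**Figure D4:**
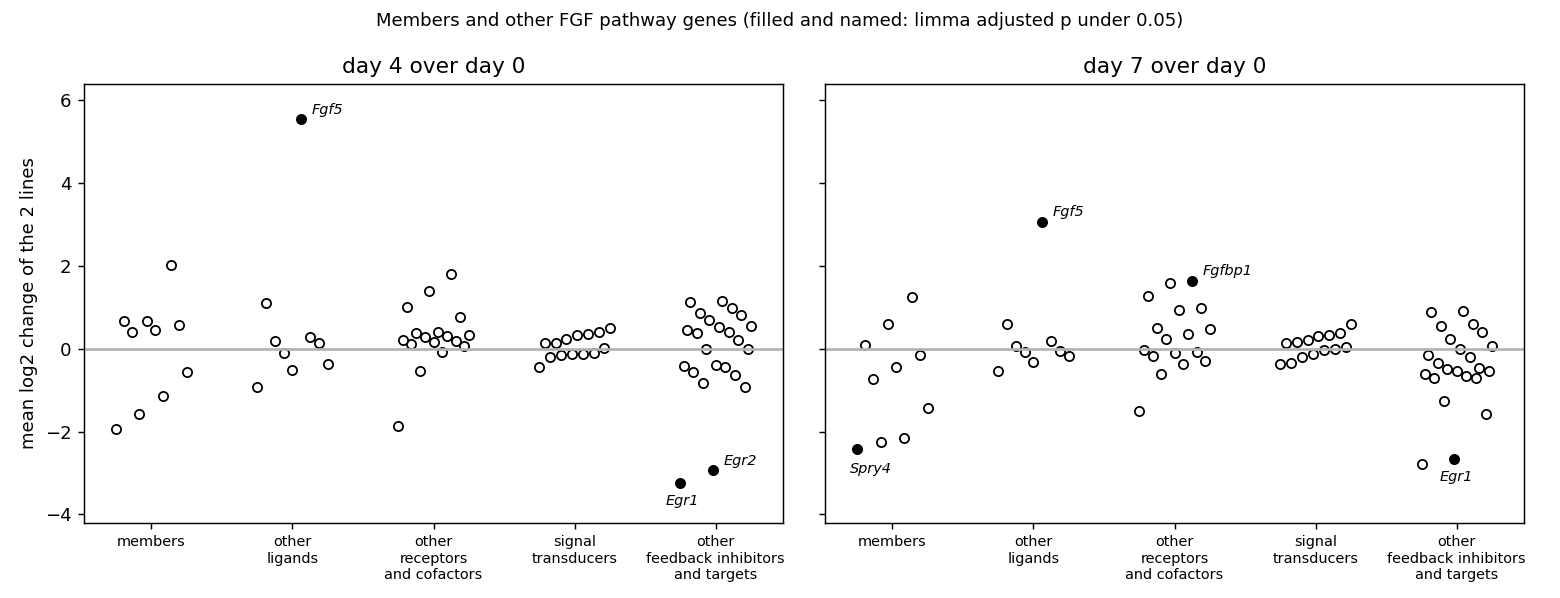
Mean log2 change of both lines (vertical axis) for the 10 members and for the other measured pathway genes by role (horizontal axis), for day 4 and day 7 over day 0. Each point is a gene, and filled, named points were called by limma. Signal transducers lie close to 0, while Fgf5 stands highest and Egr1 and Egr2 lie lowest for day 4.

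Genes whose levels over the 6 arrays were most like those of a member were named by Pearson's r among 5281 genes that varied by at least 1 log2 unit, as a description over arrays that share lines and days. Fgfr1 varied less than that and was not compared. The closest to Spry2 was Ankrd37, with r of 0.99 and levels of 8.93, 9.08 and 8.86 in TKO_FL and 8.95, 9.52 and 7.92 in TKO_602. The closest to Dusp6 were Vash2, Hdac7 and Rspo1 (r of 0.99, 0.99 and 0.98), and Rspo1, which encodes a secreted enhancer of Wnt signalling, was at 6.49 in TKO_602 at day 7 and between 7.53 and 8.38 elsewhere. The closest to Fgf17 were Klf12, Gli2 and Tdgf1 (r of 0.98, 0.97 and 0.97), and Tdgf1 encodes the Nodal co-receptor Cripto. The closest to Etv4 were Zfp975, Zfp936 and the homeobox gene En2, each with r of 0.98. The closest to Spry4 were Zfp532, Zfp982 and Trim2, each with r of 0.97. Fgf4 was nearest to Mcam, Fgf8 to Zkscan7, Fgf15 to Enc1 and Fgfr2 to Mpst, each with r between 0.98 and 0.99.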

How the data were processed

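RNA of 6 samples was hybridised to Affymetrix arrays after biotin labelling, and samples were grouped by their titles. For TKO_602's day 0 sample the source label describes differentiated cells, and the title was used. The deposited table holds log2 values of MAS5 signals, a method the submitters' processing notes name for the authors' files. The log base was read from the values, since the trimmed mean of 2 to their power, without the outer 2%, was 496.7 to 496.9 on all arrays, and the handling of low values is not given in the sources used here. Such global scaling makes levels relative to each array's mean. Array medians lay between 6.02 and 6.19.

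Values below the median over arrays of the 40th percentile (log2 5.37, not a measured background) were set to it. Probe sets with 1 gene symbol (34945, against 932 with several and 9160 with none) named genes through the platform annotation, and 34741 were found in the RefSeq table of GRCm38.p6, with 0 symbols changed. Genes whose brightest probe set had a mean signal under the floor were left out. R 4.3.3 and limma 3.58.1 fitted line and day with a variance trend, two-sided, leaving 2 residual degrees of freedom and a prior of 5.63, and the code was tested on simulated data. At least 2-fold between 2 single arrays needed the brighter array at 2 times the floor. The alternatives were 2 normalizations, a lower floor, no filter, averaged probe sets, no trend, no line term and leaving out each array.

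Named genes were the 10 members, the called pathway genes and up to 3 with the largest effect per role and comparison, and the 3 genes most like a member. Etv5 and Eomes were named after their values were seen. The members and lists were chosen with earlier results of these data known. Lists of neuroectoderm (summed log2 10.22 to 10.94) and trophoblast markers (10.93 to 12.86) were also read.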

Additional observations from a re-analysis of the deposited data

Results flagged for a closer look

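In 7 cases a member's changes in the lines had opposite signs and were at least 2-fold apart. In some of them 1 line hardly moved from day 4 to day 7: Fgf4 by -0.11 and Fgf17 by 0.14 in TKO_602, and Dusp6 by 0.09 in TKO_FL. Each case rests on 1 array per line and day, and no difference between the lines' changes was tested. For day 4 over day 0 this held for 1 of 10 members and 7.29% of all genes, for day 7 over day 4 for 4 members and 10.5%, and for day 7 over day 0 for 2 members and 11.4%. From day 0 to day 4 Fgf4 changed by log2 -1.72 in TKO_FL and 0.60 in TKO_602, 2.32 apart. From day 4 to day 7 Fgf4 had changes of 0.95 and -0.11, so that TKO_602's value minus TKO_FL's was -1.06, and for day 7 over day 0 its changes of -0.77 and 0.49 lay 1.26 apart. Fgf8 had changes of -2.55 and, counted from the floor, 1.00 from day 4 to day 7, which lie 3.55 apart. Fgf17 had changes of -1.50 and 0.14 over the same days, 1.64 apart. Dusp6 had changes of 0.09 and -2.32 from day 4 to day 7, a difference of -2.41, and of 0.75 and -1.65 from day 0 to day 7, a difference of -2.40.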

How the results depend on the processing

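With 1 array per condition the number of arrays limits the precision. The member values held their direction and their side of the threshold in 261 of 270 refits under other settings and in 211 of 240 refits without 1 array. In many of these refits the direction could not change. Dropping the filter, the trend or the line term left each log2 change as it was. So did leaving out an array of a day that a day change does not compare. Only Spry4 for day 7 over day 0 was called in the main fit, so keeping the side of the threshold mostly meant staying uncalled. The Fgfr1 line difference turned to 0.0033 with equal medians. Among the other pathway genes, the day 7 over day 0 calls of Fgf5 and Fgfbp1 and the day 4 call of Egr2 held in 3 of 7 other settings. Those calls were lost without the filter, with averaged probe sets, without a trend and without a line term. Egr1 held in 4 of 7 for day 7 over day 0. For day 4 over day 0 Egr1 and Fgf5 each held in 6 of 7. Called genes in all, main against the alternatives, moved as follows. For day 4 over day 0 there were 210 calls, and 319 with equal medians, 0 without the filter (1938 at an unadjusted p under 0.05), 13 with averaged probe sets, 16 without a trend and 18 without a line term. For day 7 over day 0 there were 137, and 227, 0 (2145 unadjusted), 3, 3 and 12 in the same order. For day 7 over day 4 there were 2, and 44 with equal medians (27 higher and 17 lower), 1 with quantile normalization, 0 with averaged probe sets (1505 unadjusted), 0 without a trend (1508 unadjusted) and 1 without a line term. Between lines there were 0, and 3 with equal medians. The cause of these shifts was not tested. Without 1 array, calls numbered 0 to 129 for day 4 over day 0, 0 to 0 for day 7 over day 4, 0 to 10 for day 7 over day 0 and 0 between lines. Members that changed sign in some of these fits had ranges for day 4 over day 0 of -1.46 to 0.34 (Fgf4) and -0.083 to 0.88 (Spry2). For day 7 over day 4 they were -0.42 to 1.26 (Fgf4), -2.68 to 1.13 (Fgf8), -0.32 to 0.17 (Fgfr2), -2.32 to 0.088 (Dusp6) and -0.77 to 0.34 (Etv4). For day 7 over day 0 they were -1.03 to 0.76 (Fgf4), -0.11 to 0.29 (Fgfr1) and -1.65 to 0.75 (Dusp6). Between lines they were -0.20 to 0.96 (Fgf4), -0.16 to 0.05 (Fgfr1), -0.46 to 0.26 (Spry2) and -1.07 to 0.14 (Dusp6). Leaving out 1 of the 2 arrays of a day rests that day on the other. No paired analysis was possible beyond the line and day terms, which compare days within a line and lines within a day, because the labels give no replicate numbers.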

Other observations

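Among protein-coding genes in the RefSeq table of GRCm38.p6, Fgf3, Fgf4 and Fgf15 stand side by side on mouse chromosome 7. By the brightest probe set of each their courses differed. The ligand gene Fgf3 was at 6.71, 6.53 and 6.10 at days 0, 4 and 7 in TKO_FL and at 6.25, 6.80 and 7.23 in TKO_602. Fgf4 was lowest in TKO_FL at day 4, and Fgf15 was lowest at day 7 in both lines. The name of this Fgf3 probe set marks probes that may bind other transcripts. Its day 7 over day 0 changes were -0.61 in TKO_FL and 0.98 in TKO_602. Other Fgf3 probe sets gave 0.625 and 0.01, and -0.685 and -0.03, so they do not show the TKO_602 rise to day 7. No Fgf3 comparison was called by limma, with an adjusted p of 0.750 for the line difference.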
